A study of Mus musculus with 5 samples.

Results

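The 38 genes described here encode proteins that carry a cell through G2 phase and mitosis. They were listed by name for that role and not by any measured value, and all 38 matched an NCBI gene identifier among the 27179 in the count table. Their messenger RNA was measured in Langerhans cells, which are phagocytes that live among the keratinocytes of the epidermis. The cells were purified from skin of mice of the C57BL/6 strain at an age of 1 week. The wild type group had 2 libraries. The Suz12 cKO group, mice with a conditional knockout of Suz12, had 3 libraries, and the design text calls the libraries of both groups biological replicates. Suz12 encodes an essential part of Polycomb repressive complex 2, which methylates histone H3 to keep genes silent. What drives the conditional deletion, and in which cells, is not given in the sources used here. Each library was made from 5000 purified cells, so a level is an average over dividing and resting cells, and fewer dividing cells and less RNA per cell cannot be told apart.

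The libraries held 12090062 to 25725900 counts, and between 9103 and 10220 genes were detected per library. Levels are given as CPM, the count divided by the TMM-adjusted library size in units of 1000000 counts. For a gene at 0 counts the level can be as high as 0.106 CPM in the deepest library and 0.257 CPM in the shallowest, the equivalent of 3 counts, a limit that covers counting error only. The targeted gene Suz12 had 88 and 39 counts in wild type and 0, 0 and 7 counts in cKO replicates 1 to 3, the direction of the labels, and was not called (edgeR adjusted p = 0.999). Counts per gene do not show whether the exons counted lie in the deleted part. The source label of all 5 libraries names alveolar macrophages, whereas the titles, tissue and protocol name Langerhans cells. The langerin gene Cd207 lay between 6613 and 14539 CPM, and the 8 Langerhans cell markers were found in every library. Of 6 alveolar macrophage markers, Chil3, Siglecf and Car4 were at 0 throughout. Ear2 (63.5 to 464 CPM) and Krt79 (91.0 to 177 CPM) were found in every library, and Marco lay at 45.5 CPM in wild type replicate 1 and at 0.117 CPM or 0 in the others.

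In a dividing cell, the kinase Cdk1 joins with cyclins A and B at the end of G2, and its activity drives chromosome condensation and assembly of the spindle. Kinetochores then attach chromosomes to microtubules under the control of the spindle checkpoint, and the anaphase-promoting complex (APC) ends mitosis by marking cyclin B and securin for destruction. Langerhans cells renew by division within the epidermis, and their precursors divide extensively there shortly after birth.

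The members share letters in their promoters that their listing did not use. Many G2 and M promoters are known to hold a cell cycle homology region, bound by the MuvB core of the DREAM complex, and CCAAT boxes, bound by the factor NF-Y. Windows from 250 bases before to 50 bases after a transcription start were taken from RefSeq (build GRCm38.p6). They were searched on both strands for TTTGAA and CCAAT. Neither string contains the other, but neighbouring matches can share an end base. A window was found for 33 of the 38 members, 36 windows in all, and none for Aurkb, Tpx2, Kif20a, Smc4 and Ccna2. The letters TTTGAA were in 26 of the 36 windows (72.2%), beside 17.9% of all 32851 windows of the same length. CCAAT was in 28 member windows (77.8%), beside 37.4% of all windows, and both were in 22 (61.1%), beside 6.95%. Of the 36 matches of TTTGAA in member windows, 26 began between 60 bases before the start and the end of the window. That count of positions was not made over all windows. It holds matches of Ect2 and Prc1 from more than 1 window each, for starts that lie close together. These are matches of letters, not measured binding.

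The 120 bases before the start are shown for members whose levels are described below: the kinase gene Cdk1, the APC partners Ube2c and Cdc20, the topoisomerase gene Top2a and the cyclin gene Ccnb1. They are written 5′ to 3′ on the strand of the gene, and capitals mark each match of TTTGAA or CCAAT, or of its reverse complement.
Cdk1, chr10:69352913-69353032, minus strand: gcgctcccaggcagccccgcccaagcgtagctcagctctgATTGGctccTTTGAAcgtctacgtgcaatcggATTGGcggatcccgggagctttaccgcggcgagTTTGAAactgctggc
Ube2c, chr2:164769809-164769928, plus strand: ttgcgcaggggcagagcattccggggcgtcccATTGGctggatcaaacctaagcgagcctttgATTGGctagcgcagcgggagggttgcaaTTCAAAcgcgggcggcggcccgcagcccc
Cdc20, chr4:118437344-118437463, minus strand: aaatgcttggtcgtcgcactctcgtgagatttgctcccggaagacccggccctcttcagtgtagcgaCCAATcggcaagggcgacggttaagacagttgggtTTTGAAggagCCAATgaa
Top2a, chr11:99024190-99024309, minus strand: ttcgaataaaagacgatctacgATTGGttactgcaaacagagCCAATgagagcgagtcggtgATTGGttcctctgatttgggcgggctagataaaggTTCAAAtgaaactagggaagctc
Ccnb1, chr13:100786487-100786606, minus strand: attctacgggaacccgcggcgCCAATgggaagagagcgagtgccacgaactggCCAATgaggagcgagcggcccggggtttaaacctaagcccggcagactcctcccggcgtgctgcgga
The Ccnb1 window held 2 CCAAT matches, which began 99 and 67 bases before the start, and no match of TTTGAA. In the Cdc20 window the TTTGAA match began 18 bases before the start, in Cdk1 the nearest began 15 bases before it, and in Top2a and Ube2c the nearest match, on the opposite strand, began 23 and 29 bases before it.

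Most members were detected in the wild type libraries, 30 in replicate 1 and 32 in replicate 2. Summed over the 38 members they held 2178 and 1890 CPM, which is 0.218% and 0.189% of the effective library size. The median member lay at 23.2 CPM in wild type replicate 1 and 24.0 CPM in wild type replicate 2, beside 16.4 and 15.5 CPM for the median of all tested genes. In replicate 1, 28 members lay at 10 CPM or more and 8 had no count, and in replicate 2 the numbers were 25 and 6.

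Per kilobase of gene length, the scale on which genes can be compared, short transcripts led the list in wild type. Cks2, a small protein that binds Cdk1 and helps it engage its substrates, lay at 284 and 407 CPM per kb. Ube2c, the ubiquitin-conjugating enzyme of the APC, lay at 201 and 167 CPM per kb, and the centromeric histone gene Cenpa at 185 and 81.8 CPM per kb. Ranges of the 2 libraries overlapped between Ube2c and Cenpa, so their order is not resolved, while both libraries of Cks2 lay above both of Ube2c. Cdk1 at 71.3 and 73.7 CPM per kb was followed by Ccnb2, a B-type cyclin, at 98.2 and 42.7, and these overlapped as well.

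Some other members were scarce or absent, among them Mki67, which is widely used to mark dividing cells. Others, such as Birc5 and Top2a, were found in both wild type libraries. Mki67, which encodes the Ki-67 protein that coats mitotic chromosomes, had 266 counts in wild type replicate 1 and 0 in wild type replicate 2, or 1.39 and 0 CPM per kb. Kif20b, Ttk, Cenpe and Hmmr had no count in either wild type library, and Ttk, a checkpoint kinase gene, had none in any of the 5 libraries. Kif11, the motor that pushes spindle poles apart, had 0 and 247 counts. Ranked by the mean over all 5 libraries, the 19 more abundant members had a median length of 2811 bases and the 19 less abundant 3914 bases. A library without a count was found for 4 of the former and 16 of the latter.

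**Figure D1:**
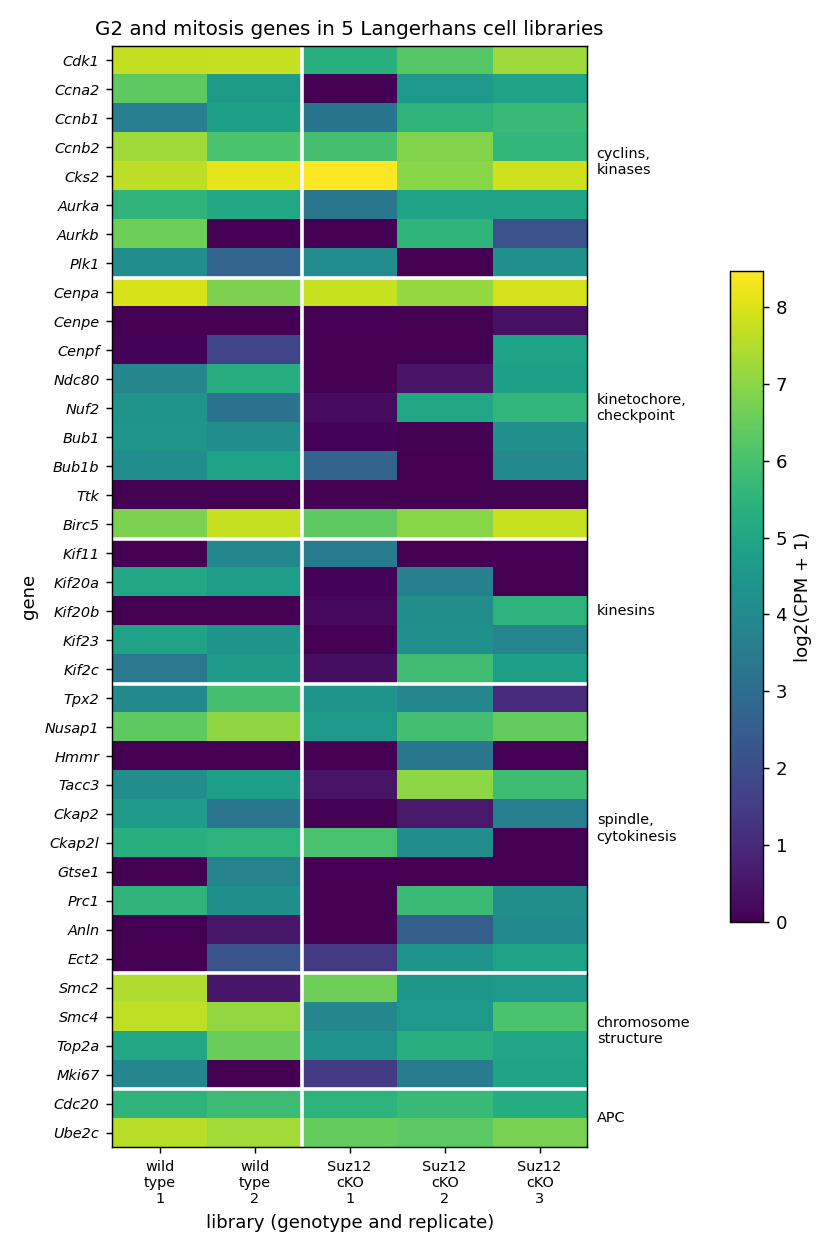
Level of each of the 38 genes (rows, grouped by function) in each library (columns), as colour on a scale of log2(CPM + 1). Suz12 cKO replicate 1 has the most dark cells, with 12 members at 0 counts, and Cks2, Cenpa, Cdk1, Birc5 and Ube2c are bright in every library.

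The comparison of genotypes asks whether loss of Suz12 alters the mitotic transcripts of these cells. The members lay lower in the cKO libraries on average, in steps that differed between the 3 libraries. Their sum was 1170, 1391 and 1737 CPM in cKO replicates 1 to 3, all below both wild type libraries, and the ratio of the group means was 0.704. The median member lay at 1.75 CPM in cKO replicate 1, 20.7 CPM in cKO replicate 2 and 27.9 CPM in cKO replicate 3. By the sum the groups did not overlap, whereas by the median cKO replicate 3 was the highest of the 5 libraries. Abundant members weigh most in the sum. The mean fell in cKO from 168 to 33.9 CPM (Smc4), 207 to 88.4 CPM (Cdk1) and 172 to 91.4 CPM (Ube2c). By function, the genotypes were apart only for the sums that include these genes. The sums of kinesins and of spindle genes overlapped. Kinetochore genes overlapped too, with sums of 429 and 413 CPM across the wild type pair and 303, 296 and 586 CPM in cKO.

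No member passed the test. edgeR's quasi-likelihood test with Benjamini-Hochberg adjustment found 0 of 9988 genes (0.00%) under an adjusted p of 0.05, and 0 of the 34 members that had enough counts to be tested. At an unadjusted p of 0.05 it gave 415 genes (4.15%), and 3 members. Smc4 and Ube2c were on the lower side (2.05% of all tested genes) and Kif20b on the higher side (2.10%). DESeq2 called 191 of 9019 genes (2.12%) and 1 member, Kif20b, which had no count in wild type. The median standard error of a member's log2 fold change was 1.88, and of all tested genes 1.87.

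Of the 38 members, 25 (65.8%) had a lower mean in cKO, 12 a higher one, and Ttk was at 0 throughout. Among all tested genes 47.5% had a lower mean in cKO. The median log2 fold change was -0.69 over the 34 tested members and 0.06 over all tested genes. It was -0.37 without wild type replicate 1 and -0.43 without cKO replicate 1. For 7 of 38 members (18.4%) the highest cKO library was under the lowest wild type library: Cdk1, Aurka, Bub1b, Kif20a, Kif23, Smc4 and Ube2c. Among all tested genes this was so for 10.2%. In the other direction, 1 of 38 members, Kif20b, lay above both wild type libraries in all 3 cKO libraries, beside 8.87% of all tested genes. Neither share uses the floor of 3 counts. Kif20b was at 0 in wild type, and its 2 counts in cKO replicate 1 are under that floor. With a library left out the 7 became 9 without cKO replicate 1 (15.8% of all tested genes), 11 without cKO replicate 2 (18.7%), 13 without cKO replicate 3 (15.4%) and 14 without wild type replicate 1 (23.6%) or 2 (23.1%), since fewer libraries overlap less.

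**Figure D2:**
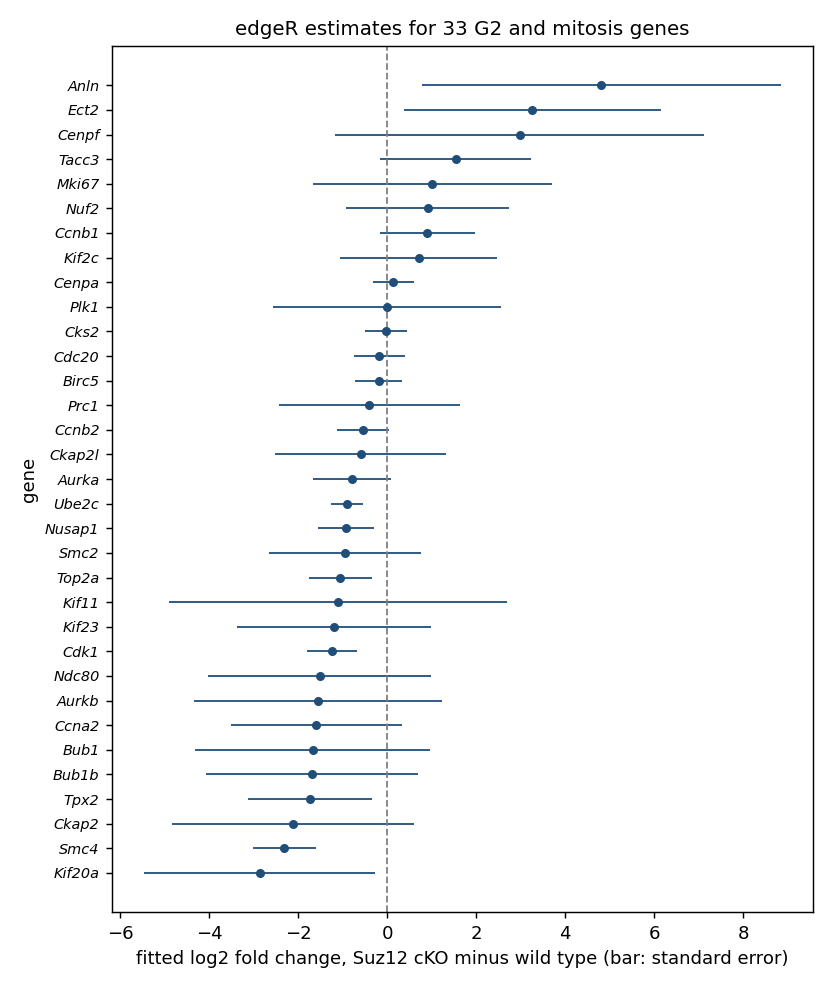
Fitted log2 fold change (Suz12 cKO minus wild type, x axis) with its standard error (bars) for the 33 tested members with counts in both groups, ordered by size. Smc4, Ube2c and Cdk1 lie below 0 with short bars, and members at 0 in single libraries have bars of more than 1.5 log2 units.

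The 3 cKO libraries differed in how many members lay below wild type. cKO replicate 1 was the single lowest library for 15 of the 38 members (39.5%), beside 16.7% of all tested genes. Replicate 1 lay below both wild type libraries for 22 members (57.9%), beside 32.0% of all tested genes, and above both for 3 (7.89%, beside 34.9%). In cKO replicate 2 the numbers were 17 below (44.7%, beside 30.9%) and 9 above (23.7%, beside 37.1%). In cKO replicate 3 they were 13 below (34.2%, beside 32.1%) and 12 above (31.6%, beside 32.0%), close to the shares over all genes. Without cKO replicate 1, 23 of 38 members had a lower mean in cKO, beside 49.4% of all tested genes, and the ratio of the summed levels was 0.769. Without wild type replicate 1 these were 20 members, beside 44.8%, and 0.758. Over all tested genes cKO replicate 1 had a median of 16.1 CPM (15.3 to 18.8 in the other 4 libraries) and 14.6% of genes at 0 counts (10.4% to 17.7%). Its share of tested genes under 1 CPM, 24.5%, was the highest of the 5 libraries (16.2% to 23.7% in the others), and the part of this in the members' levels was not tested.

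**Figure D3:**
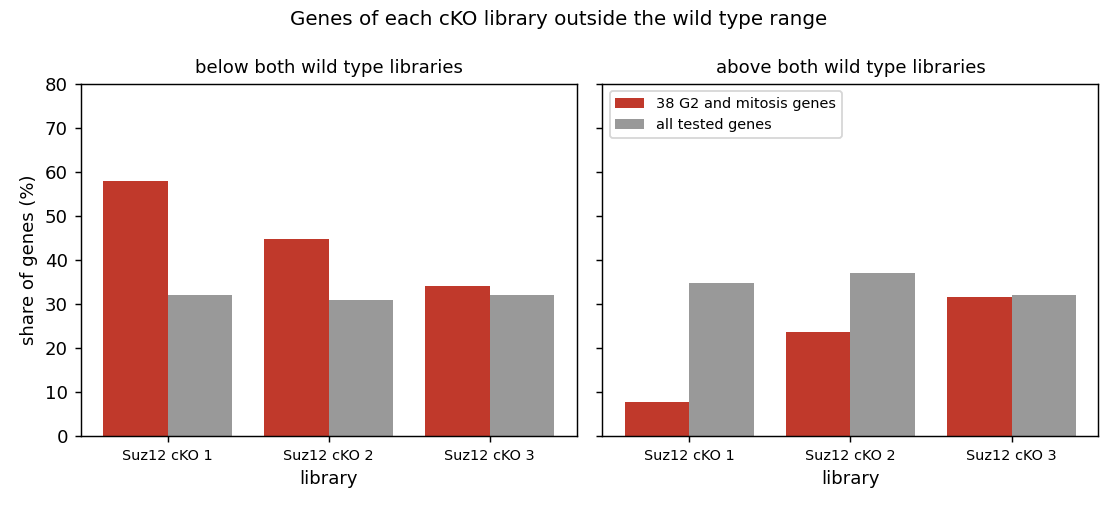
Share of genes (y axis, percent) that lay below both wild type libraries (left) or above both (right) in each cKO library, for the 38 G2 and mitosis genes (red) and all 9988 tested genes (grey). The red bar is above the grey one by the most in cKO replicate 1, on the left, at 57.9% against 32.0%, and the bars are nearly level in cKO replicate 3.

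Among the cyclins and mitotic kinases, Cdk1 lay lower in every cKO library and its partner cyclins did not move together. Cdk1 (chromosome 10, 69335146 to 69352912, GRCm38.p6) lay at 204 and 211 CPM across the wild type pair and at 40.5, 75.0 and 150 CPM in cKO replicates 1 to 3. The groups did not overlap, and the cKO libraries spanned a wider range than the wild type pair. The fitted log2 fold change of Cdk1 was -1.23 (standard error 0.56, edgeR adjusted p = 0.968). Ccna2, the cyclin of S phase and G2, lay at 81.0 and 23.3 CPM across the wild type pair and at 0, 22.9 and 29.1 CPM in cKO. Ccnb1, the main cyclin of mitotic entry, went the other way in 2 of 3 cKO libraries, at 11.3 and 26.8 CPM across the wild type pair and 8.73, 44.7 and 52.9 CPM in cKO. Ccnb2 overlapped between groups, at 151 and 65.8 CPM across the wild type pair and 61.3, 115 and 47.3 CPM in cKO. The fitted log2 fold changes were 0.90 for Ccnb1 and -0.54 for Ccnb2, with standard errors of 1.07 and 0.58. That of Ccnb1 became 0.41 without wild type replicate 1, 0.52 without cKO replicate 3, 1.37 without cKO replicate 1 and 1.67 without wild type replicate 2. That of Ccnb2 was -1.01 without wild type replicate 2, -1.001 without cKO replicate 2, -0.29 without cKO replicate 3 and turned to 0.18 without wild type replicate 1.

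Cks2 was an exception to the low levels of cKO replicate 1. It lay at 197 and 283 CPM across the wild type pair and at 352, 125 and 228 CPM in cKO, so that cKO replicate 1 was the highest of the 5 libraries. Aurka, a kinase that matures the centrosomes, lay at 44.5 and 33.2 CPM across the wild type pair and 9.10, 29.0 and 29.3 CPM in cKO, without overlap (log2 fold change -0.79, standard error 0.88; -0.40 without cKO replicate 1). Aurkb, the kinase of the chromosomal passenger complex, was at 96.7 CPM in wild type replicate 1 and at 0 in wild type replicate 2, with 0, 45.8 and 3.42 CPM in cKO. Plk1, a kinase that acts throughout mitosis, lay at 16.9 and 5.81 CPM across the wild type pair and 16.0, 0 and 18.04 CPM in cKO. In Aurkb and Plk1 the libraries of 1 genotype differed from each other by more than the genotypes did.

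The kinetochore and checkpoint genes divided into abundant members that overlapped between groups and scarce members that were at or near 0 in cKO replicate 1, cKO replicate 2 or both. Of these scarce members, Ttk and Cenpe had no count in wild type either, and Cenpf lay at 0.0527 and 2.41 CPM there. Cenpa lay at 247 and 109 CPM across the wild type pair and 216, 139 and 235 CPM in cKO. Birc5, which encodes survivin of the passenger complex, lay at 110 and 209 CPM across the wild type pair and 81.5, 124 and 214 CPM in cKO. For both genes the ranges of the groups overlapped.

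The checkpoint kinase gene Bub1 had 407 and 284 counts in wild type, 1 count each in cKO replicates 1 and 2, and 209 counts in cKO replicate 3. Its relative Bub1b, which encodes the checkpoint protein BubR1, lay at 16.6 and 28.8 CPM across the wild type pair and 5.42, 0 and 15.7 CPM in cKO, without overlap (log2 fold change -1.69, standard error 2.38; -3.10 without cKO replicate 3 and -1.11 without cKO replicate 2). Both checkpoint genes were near or at 0 in cKO replicate 2 and within or close to the wild type range in cKO replicate 3. Ndc80 and Nuf2 encode partners in the complex that binds microtubules at the kinetochore. Ndc80 lay at 14.0 and 37.8 CPM across the wild type pair and 0, 0.353 and 26.8 CPM in cKO. Nuf2 lay at 19.9 and 8.34 CPM across the wild type pair and 0.187, 32.4 and 46.9 CPM in cKO, so the partners differed in cKO replicate 2. Cenpf, a very long kinetochore transcript, lay at 29.2 CPM in cKO replicate 3 and at 0.0527 and 2.41 CPM in wild type, with no count in cKO replicates 1 and 2. Cenpe, a kinetochore motor gene, had 4 counts in cKO replicate 3 and none elsewhere.

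Of the 5 kinesins, Kif20a and Kif23 lay lower in all cKO libraries, beside 10.2% of all tested genes, and Kif20b had counts in cKO alone. Kif20a and Kif23 encode motors of the central spindle that are needed to complete cytokinesis. Kif20a had 614 and 428 counts in wild type and 1, 333 and 0 counts in cKO, or 32.4 and 25.1 CPM against 0.0623, 11.7 and 0 CPM. Kif23 lay at 28.2 and 19.9 CPM across the wild type pair and 0, 18.1 and 13.6 CPM in cKO, so the groups were only narrowly apart. The log2 fold changes were -2.86 for Kif20a and -1.19 for Kif23, with standard errors of 2.60 and 2.18. With a library left out they reached -9.45 for Kif20a (without cKO replicate 2, which leaves cKO with 1 count) and -0.58 for Kif23 (without cKO replicate 1; -1.82 without cKO replicate 2).

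Kif20b (chromosome 19, 34922335 to 34975750), a further kinesin of late mitosis, had no count in wild type and 2, 482 and 512 counts in cKO. These counts correspond to 0.125, 17.0 and 43.8 CPM. With a floor of 3 counts set over both wild type libraries, the counted level of the cKO group was at least 213-fold higher. That bound covers counting error only and not the loss of a gene from single libraries. From wild type replicate 1 to replicate 2, Aurkb went from 96.7 to 0 CPM and Smc2 from 176 to 0.411 CPM. cKO replicate 1, with its 2 counts, lay under that floor, so the difference came from cKO replicates 2 and 3. edgeR gave an adjusted p of 0.968 and DESeq2 called it. Kif2c, which takes microtubules apart at centromeres, lay at 9.49 and 24.8 CPM across the wild type pair and 0.249, 56.9 and 26.6 CPM in cKO. Kif11 had counts only in wild type replicate 2 and cKO replicate 1, at 14.5 and 10.1 CPM.

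**Figure D4:**
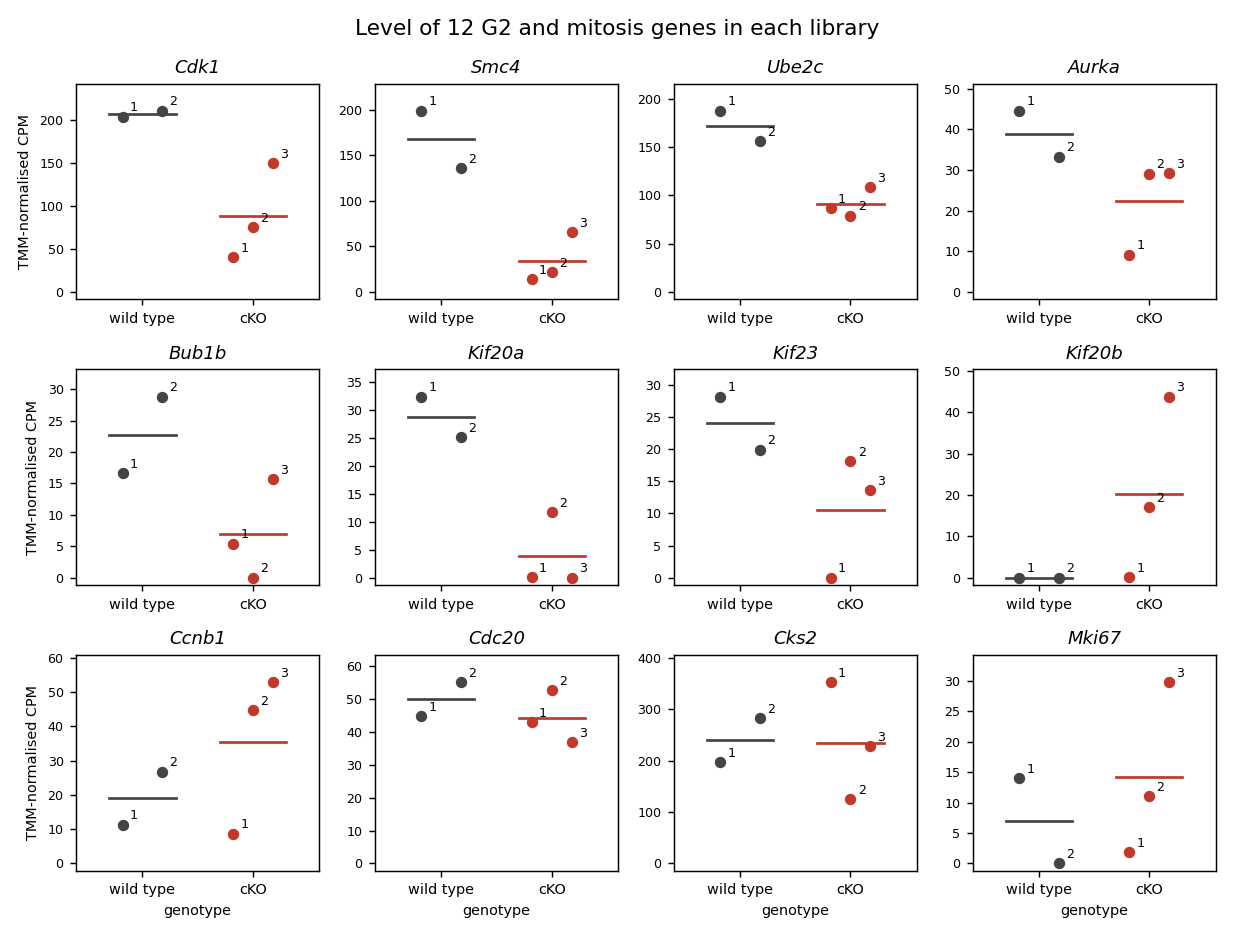
TMM-normalised CPM (y axis, linear, separate scale per gene) of 12 members in wild type (black) and Suz12 cKO (red) libraries. Points are libraries labelled by replicate number and lines are group means. The groups of the first 7 genes do not overlap, Kif20b is at 0 in wild type with 2 counts in cKO replicate 1, and Ccnb1, Cdc20, Cks2 and Mki67 overlap.

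The 10 genes of the spindle, the midzone and cytokinesis varied from library to library, and for 0 of them were the groups apart, beside 10.2% of all tested genes lower and 8.87% higher. Nusap1, which bundles spindle microtubules, was the most abundant of these 10 in wild type, at 81.3 and 132 CPM, and lay at 22.5, 60.8 and 85.3 CPM in cKO (log2 fold change -0.92, standard error 0.64; -0.52 without wild type replicate 2 and -0.53 without cKO replicate 1). Tpx2, the activator of the Aurka kinase, lay at 15.6 and 62.1 CPM across the wild type pair and 19.6, 14.3 and 1.03 CPM in cKO, so its lowest library was cKO replicate 3. The fitted log2 fold change of Tpx2 was -1.74 (standard error 1.40), and -0.41 without wild type replicate 2. Tacc3, which steadies kinetochore fibres together with Aurka, lay at 16.8 and 26.3 CPM across the wild type pair and 0.374, 131 and 56.4 CPM in cKO. Thus Aurka, Tpx2 and Tacc3, which act together at the spindle, each had a different order of libraries.

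Prc1, the bundler of the central spindle, lay at 44.2 and 17.7 CPM across the wild type pair and 0, 53.1 and 17.2 CPM in cKO. Ckap2 lay at 24.9 and 8.93 CPM across the wild type pair and 0, 0.494 and 11.2 CPM in cKO, whereas its relative Ckap2l lay at 38.8 and 43.5 CPM across the wild type pair and 65.1, 16.7 and 0 CPM in cKO. Each of these 3 genes was at 0 in 1 cKO library, and the highest library of Ckap2l was the one in which Prc1 and Ckap2 had no count. Anln and Ect2, which organise the contractile ring of cytokinesis, were higher in cKO replicates 2 and 3 than in any other library. Ect2 lay at 0 and 3.52 CPM across the wild type pair and 1.68, 20.0 and 29.3 CPM in cKO, and Anln at 0 and 0.470 CPM across the wild type pair and 0, 4.97 and 15.3 CPM in cKO. Gtse1 was found in wild type replicate 2 alone, with 218 counts, and Hmmr in cKO replicate 2 alone, with 254.

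Of the genes that shape mitotic chromosomes, the condensin subunit Smc4 had the smallest p of all members. Smc4 (chromosome 3, 69004738 to 69034623) lay at 199 and 136 CPM across the wild type pair and 14.2, 21.8 and 65.7 CPM in cKO. The groups were apart, with a wide gap between the highest cKO library and the lowest wild type one. The fitted log2 fold change of Smc4 was -2.31 (standard error 0.71, edgeR unadjusted p = 0.0146, adjusted p = 0.968). Smc2, which forms the core of condensin together with Smc4, did not follow it. It lay at 176 CPM in wild type replicate 1, at 0.411 CPM in wild type replicate 2, and at 94.9, 21.5 and 21.6 CPM in cKO, so its fitted log2 fold change of -0.94 (standard error 1.70) turned to 6.79 without wild type replicate 1.

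Top2a, the topoisomerase that untangles sister chromatids, lay at 32.8 and 90.5 CPM across the wild type pair and 19.0, 38.7 and 31.4 CPM in cKO. Wild type replicate 1 lay within the cKO range, and the fitted log2 fold change was -1.05 (standard error 0.71). Leaving out wild type replicate 2 gave -0.13, and leaving out replicate 1 of that group gave -1.60. Mki67 lay at 14.0 and 0 CPM across the wild type pair and 1.81, 11.04 and 29.8 CPM in cKO. Its log2 fold change of 1.02 had a standard error of 2.69 and turned to -0.094 without cKO replicate 3. It was 0.025 without wild type replicate 2, 1.55 without cKO replicate 1, and 11.02 when the only wild type library left was the one at 0. In these libraries the Ki-67 gene therefore ranked the samples unlike Cdk1 or Top2a did.

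Both APC partners were found in every library. Ube2c (chromosome 2, 164769929 to 164772902) lay at 187 and 156 CPM across the wild type pair and 86.8, 79.0 and 108 CPM in cKO, or 172 ± 22.3 against 91.4 ± 15.2 CPM (SD, n = 2 and n = 3). All 3 cKO libraries were below both wild type libraries, and the difference of the means exceeded both SDs. The fitted log2 fold change of Ube2c was -0.91 (standard error 0.36, edgeR unadjusted p = 0.0385, adjusted p = 0.968). Cdc20, the activator of the APC in mitosis, lay at 44.9 and 55.1 CPM across the wild type pair and 43.1, 52.7 and 36.9 CPM in cKO. The cKO mean was 44.2 ± 7.95 CPM (SD, n = 3), and it differed from the wild type mean by less than that SD (log2 fold change -0.18, standard error 0.57, and -0.32 to -0.012 with a library left out).

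Single members could be present in one library and missing from another, in some cases within a genotype. Of the 38 members, 22 (57.9%) reached 10 CPM in one library and stayed under 1 CPM in another, beside 36.8% of all tested genes. These counts run over all 5 libraries, whatever the genotype. All 5 kinesins did so, as did 7 of the 10 spindle and cytokinesis genes, 5 of the 9 kinetochore and checkpoint genes, 3 of the 8 cyclins and kinases, 2 of the 4 chromosome genes, and neither of the APC partners. By abundance, 7 were among the 19 more abundant members and 15 among the 19 less abundant. Within wild type alone, Aurkb, Smc2, Mki67, Kif11 and Gtse1 went from 10 CPM or more to under 1 CPM.

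A wider list of 111 genes of G2 and mitosis, none of them a member, had a median close to that of all tested genes. Of these, 97 were tested, 48 lay higher and 49 lower in cKO, the median of the log2 fold changes was -0.02, and 0 passed. The groups were apart with cKO lower for 11 of the 111 (10.2% of all tested genes) and with cKO higher for 3 (8.87%). Here too cKO replicate 1 had the most genes without a count, 43 of 111, beside 26 and 28 in wild type and 23 and 38 in cKO replicates 2 and 3. Mitotic kinesins and cytokinesis genes outside the members summed to 267 and 264 CPM across the wild type pair and 79.8, 236 and 138 CPM in cKO. The 16 subunits and partners of the APC, which also act outside mitosis, summed to 762 and 731 CPM across the wild type pair and 675, 773 and 732 CPM in cKO.

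By the smallest p, the genes of that list that lay lower in cKO were Zwilch, Troap, Pmf1, Dlgap5 and Anapc2. Zwilch, of the complex that brings dynein to kinetochores, lay at 16.0 and 19.5 CPM across the wild type pair and had no count in cKO. Troap lay at 4.48 and 27.95 CPM across the wild type pair and also had none in cKO. Dlgap5, which stabilises kinetochore fibres, lay at 5.75 and 8.46 CPM across the wild type pair and 0, 0.0705 and 0 CPM in cKO. Pmf1, a subunit of the kinetochore's Mis12 complex, was found in every library, at 80.2 and 108 CPM across the wild type pair and 30.7, 29.6 and 48.7 CPM in cKO (log2 fold change -1.37, standard error 0.52, edgeR adjusted p = 0.968). Anapc2, the cullin subunit of the APC, lay at 59.4 and 23.8 CPM across the wild type pair and 1.496, 5.18 and 9.66 CPM in cKO. These 5 were picked by their p, and none passed the test.

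On the higher side were Ncaph2, Cdc25a, Cenpc1, Kntc1 and Psrc1. Ncaph2, a subunit of condensin II, which also contains Smc2 and Smc4, lay at 62.1 and 65.1 CPM across the wild type pair and 146, 197 and 165 CPM in cKO. It lay in the direction opposite to Smc4, with a log2 fold change of 1.41 and a standard error of 0.37 (edgeR unadjusted p = 0.00663, adjusted p = 0.968). The other 4 had no count in wild type and were at 0 in at least 1 cKO library. Mybl2, a transcription factor that joins the MuvB core at G2 and M promoters, lay at 0.316 and 0 CPM across the wild type pair and 4.30, 6.98 and 3.34 CPM in cKO, and was named after its values were seen.

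Other cells of the epidermis divide as well, and their transcripts were present. Of 17 keratinocyte markers 14 could be tested, and the list summed to 329 and 832 CPM across the wild type pair and 891, 1179 and 966 CPM in cKO replicates 1 to 3. Of the 14, 12 lay higher and 2 lower in cKO with a median log2 fold change of 1.03, 0 passed the test, and 2 had an unadjusted edgeR p under 0.05. Krt10, Krtdap, Sfn and Perp, 4 of the 17, had every cKO library above the wild type pair, beside 8.87% of all tested genes. Krtdap, for example, lay at 45.2 and 76.5 CPM across the wild type pair and 123, 144 and 335 CPM in cKO. The basal keratin gene Krt14 lay between 89.1 and 234 CPM and overlapped between groups, and Dsg3 was at 0 throughout. Of 10 T cell markers 7 could be tested, and the list summed to 660 and 503 CPM across the wild type pair and 789, 294 and 249 CPM in cKO. Cd3g made up most of that sum in cKO replicate 1. It lay at 359 and 302 CPM across the wild type pair and 538, 148 and 125 CPM in cKO. Cd3d, 1 of the 10, lay lower in every cKO library, beside 10.2% of all tested genes. Its levels were 105 and 67.4 CPM across the wild type pair and 41.6, 21.7 and 35.1 CPM in cKO. The 7 melanocyte markers, 5 of them tested, summed to 39.6 and 429 CPM across the wild type pair and 33.0 to 144 CPM in cKO. The 9 markers of fibroblasts and endothelium, 5 tested, summed to 21.1 and 109 CPM across the wild type pair and 9.72 to 210 CPM in cKO, with Pdgfra and Cdh5 at 0 throughout. The 8 mast cell and neutrophil markers, 3 of them tested, had a sum of 169.6 and 184 CPM across the wild type pair and 239, 539 and 257 CPM in cKO. Most of this was Mmp9, at 169.5 and 184 CPM across the wild type pair and 229.5, 521 and 248 CPM in cKO, without overlap. Which cells the Mmp9 transcripts came from was not tested. Csf3r had 1 and 0 counts in wild type and 151, 368 and 0 in cKO, Gata2 had counts in cKO replicates 2 and 3 alone, and Cpa3, Mcpt4, Cma1 and S100a9 were at 0 in every library. The 8 Langerhans cell markers summed to 65134 to 81498 CPM across the wild type pair and 73811 to 82480 CPM in cKO, the highest in cKO replicate 1. In that library, where the members were lowest, the keratinocyte sum was within the range of the other libraries. Its T cell sum, most of it Cd3g, was the highest of the 5. The part of these cells in the levels of the members was not tested.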

How the data were processed

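The authors deposited raw counts per gene for 5 libraries, as a table of the series and a file per sample, and the 5 sample files held the same counts as the table. The submitters' processing notes name featureCounts and the build mm10. Which aligner was used, whether strand was used and what was done with reads matching more than 1 gene is not given in the sources used here. Spans of 10 members overlap another counted gene in RefSeq, so their counts are uncertain where reads fall in shared bases: Ccna2, Aurka, Kif20a, Kif20b, Nusap1, Prc1, Anln, Ect2, Smc4 and Cdc20. Gene length is the deposited length of each gene in bases.

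Symbols came from RefSeq (GRCm38.p6) for 25275 of 27179 identifiers. Genes were kept by filterByExpr (minimum count 10), scaled by TMM and tested between genotypes with the robust quasi-likelihood fit of edgeR 4.0.16 (R 4.3.3). p-values were adjusted over all genes by Benjamini-Hochberg, with 0.05 as threshold. A negative log2 fold change means lower in cKO. The alternatives comprised DESeq2 1.42.0, limma-voom (limma 3.58.1), RLE scaling, a minimum count of 50 or no filter, leaving out each library, and terms for the replicate number (a replicate block) or the title style. The legacy setting of edgeR was switched off in a further fit, chosen after the data had been seen. The fit was checked on simulated counts. A pass was required only where the simulated spread between libraries was low, which does not show the power of the test in these data. The members, lists and tests were chosen with earlier results of these data known. Values in every library are given for Mki67, Top2a, Cdk1, Ccnb1, Smc2, Smc4, Cdc20 and Ube2c, for members whose groups do not overlap or with no count in a group, and for the 2 members of each function group with the smallest p. From the wider list up to 5 genes per direction with the smallest p are named. Other members named with values, and Mybl2, were chosen after their values were seen. Figures were drawn with matplotlib 3.10.9.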

Additional observations from a re-analysis of the deposited data

How the results depend on the processing

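The call of 0 members and 0 genes held under RLE factors, no filter, the stricter filter, limma-voom, the title style, each library left out and edgeR without its legacy setting. DESeq2 called 191 genes and 1 member (Kif20b). With the replicate block, which uses libraries 1 and 2 of each group, 1 gene and 0 members were called and the median log2 fold change of the members was -1.24. Differences between libraries 1 and 2 had r = -0.03 between genotypes across 9988 genes, which gave no sign of pairs by number. The titles of wild type replicate 1 and cKO replicates 1 and 2 say LC. Those of wild type replicate 2 and cKO replicate 3 say Langerhans-cell. The check by number crosses the title styles in wild type but not in cKO, so it could not show a grouping by title style. With a library left out the median log2 fold change of the members lay between -0.88 and -0.37, and the ratio of the summed levels between 0.629 and 0.769. The count of members with all cKO libraries below wild type was 7 with all libraries, beside 10.2% of all tested genes. It ranged from 9 to 14 with a library left out, where the share of all tested genes was 15.4% to 23.6%. Of 243 log2 fold changes of 19 named genes under alternatives, 236 kept their direction and 0 passed the threshold. The 19 include Pmf1, Ncaph2 and Suz12, which are not members. They leave out Kif20b, which DESeq2 called, and Cenpe, Gtse1 and Hmmr, because these had no count in a group. Smc2 turned to 1.85 with limma-voom, 2.22 with the replicate block, 0.28 with the title style and 6.79 without wild type replicate 1; Cenpf turned to -0.33 with the title style; Ccnb2 to 0.18 without wild type replicate 1; Mki67 to -0.094 without cKO replicate 3. With a library left out the ranges were -2.02 to 6.79 for Smc2, -1.01 to 0.18 for Ccnb2 and -0.094 to 11.02 for Mki67. The cause was not tested. Without counts in a library, levels under 0.106 to 0.257 CPM could not be seen.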
